A study of Caenorhabditis elegans with 4 samples.

Results

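Chromosome III of Caenorhabditis elegans carried 460 of the 2707 peaks (17.0%, 95% Wilson interval 15.6 to 18.5) in the combined list of regions bound by the nuclear receptor NHR-6, and these 460 regions are described here. They are every line of the combined list placed on III, so no score, rank or width decided which peaks of that list are included. The chromosome itself was picked with earlier results of these data known. Binding was mapped by chromatin immunoprecipitation and sequencing (ChIP-seq) in L4 hermaphrodites of strain OP90, kept at 20 °C and fixed with formaldehyde at 2%. The series has 2 ChIP libraries made with anti-GFP antibodies and 2 input libraries of total genomic DNA. Input values were not analysed here.

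All 4 samples share their genotype. The worms carried the unc-119(ed3) allele on III and the transgene wgIs90, introduced by particle bombardment. It supplies a working copy of unc-119 together with nhr-6 fused to TY1, EGFP and 3xFLAG. The genotype lists no mutation of the endogenous nhr-6, and the strain is given as not outcrossed. The labels describe the fusion protein in neurons around the pharynx at stage L2, and they say nothing of its sites of expression at L4. Peak lists hold no expression, so the bound cells could not be checked against markers. The labels number the replicates without saying whether they came from separate cultures, so differences between them may be technical.

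NHR-6 is the worm member of the NR4A family of nuclear receptors, which in mammals comprises Nur77, Nurr1 and NOR1. These receptors bind DNA through a zinc-finger domain, can do so as monomers, and act without a known natural ligand as products of genes that respond quickly to stimuli. In C. elegans, nhr-6 is needed for the development of the spermatheca, the chamber in which oocytes are fertilised, and for ovulation. The autosomes of the worm have gene-rich centres flanked by arms that hold more repeats and recombine more often.

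The genes nhr-6 and unc-119 both lie on chromosome III in the RefSeq gene table at hand, so the transgene adds copies of sequence from the chromosome described here. That table is of build WBcel235, whereas the peaks are on build WS220, and no genome of WS220 was used here. Peaks were therefore not assigned to genes, no sequence is printed, and whether any peak lies at a locus carried by the transgene was not tested.

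Peaks were densest on III. It held 33.4 combined peaks per Mb of span, where the span runs to the largest peak end found on it in the 3 lists (13.8 Mb). The other 5 nuclear chromosomes ranged from 22.1 per Mb on IV to 29.4 per Mb on I, and together they held 26.0 per Mb, which puts III 1.28 times higher. The replicate lists placed III first as well. Replicate 1 had 313 peaks per Mb on III, against 215 on V to 279 on I. Replicate 2 had 355 per Mb on III, against 247 on V to 317 on I. Combined peaks covered 1.46% of the span of III, against at most 1.33%, on II. A chromosome cannot be tested against 5 others without a model of how peaks fall, and peaks of a list are not replicates, so these are descriptions and the intervals cover the counting of peaks only. The lists hold no reads, so sequencing depth is unknown.

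The peaks of III were also more often narrow. The usual width of a combined peak was 510 bp, and 351 of the 460 peaks (76.3%, 95% interval 72.2 to 80.0) had it. Narrower peaks numbered 106 (23.0%, 19.4 to 27.1). On the other chromosomes the narrower share ran from 16.8% on IV (13.4 to 20.9) to 18.1% on I (14.8 to 21.9). The interval of III overlaps those of each of the other 5. Narrow peaks more often had the highest score of the combined list: 99.1% of them tied at it, against 66.7% of peaks of the usual width. Their median rank in that list was 268, against 1637 for peaks of the usual width. Both medians fall within the tie of 1976 peaks, so that contrast rests on peak number. Here rank 1 is the highest score in a list, and ties were ordered by the authors' peak number. Just below the tie at the highest score, score order and peak number can run opposite. The combined peak of rank 1980 has peak number 2234, and that of rank 2088 has 2126. Ranks are therefore positions in a list and not a single scale of strength.

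**Figure D1:**
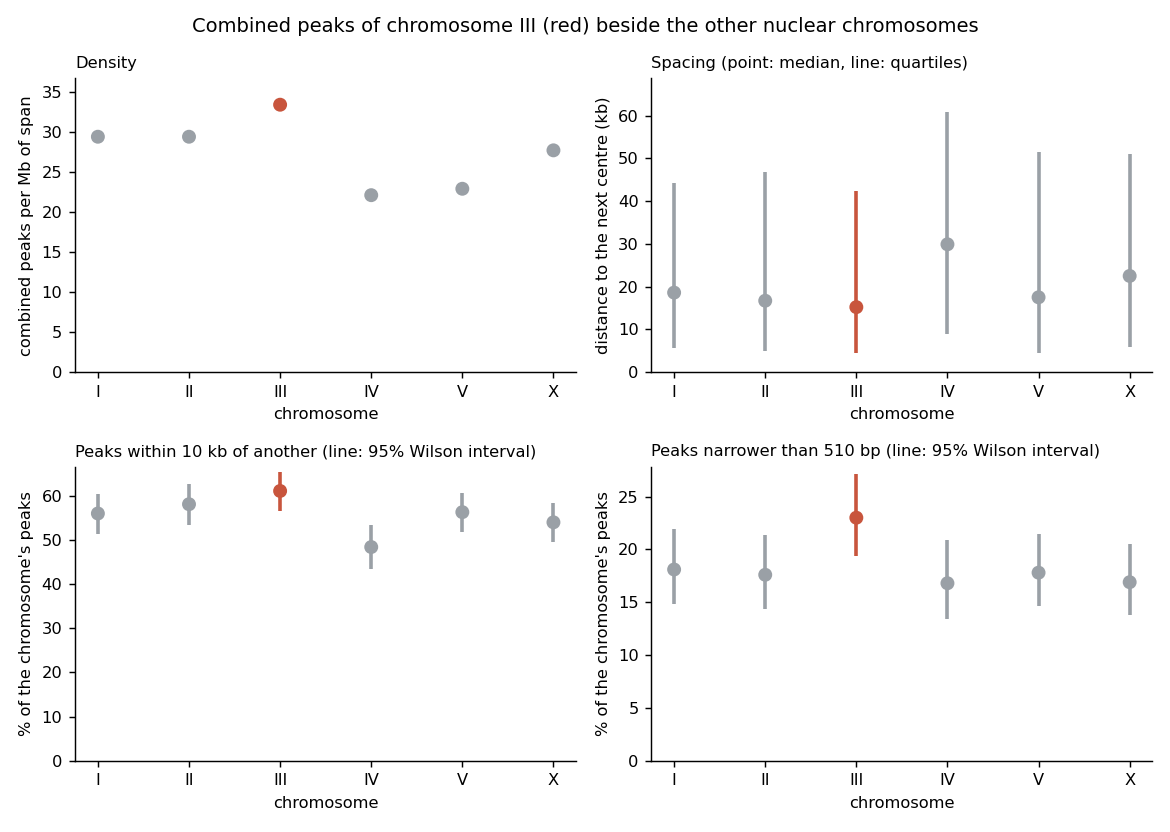
Density, spacing, grouping and width of combined peaks on each nuclear chromosome, with III in red. Upper left, peaks per Mb of span; upper right, median and quartiles of the distance between neighbouring centres in kb; lower panels, the percentage of peaks within 10 kb of another and the percentage narrower than 510 bp, with 95% Wilson intervals. Chromosome III stands highest in density (33.4 per Mb) and in both percentages (61.1% and 23.0%), and its intervals overlap those of most other chromosomes.

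High-ranked peaks of III made up 8 of the 25 highest-ranked combined peaks, against 1 on I to 9 on V. Of the 100 highest-ranked, 19 were on III, close to its 17.0% of the whole list, against 6 on IV to 32 on V. An interval of 2742 bp that is listed 3 times enters the 19 with 2 of its listings. The score is the authors' own per-peak value on a scale that is not stated, and 342 of the 460 peaks (74.3%) tie at its highest value, 3.60. The order among those 342 therefore rests on peak number. The 118 peaks below it had a median score of 3.02 and reached down to 2.96. Peaks of III were also frequent among the first 250 nuclear ranks of each replicate list. Those ranks lie within the tie at the highest score, so they were cut by peak number. Among the first 250 nuclear peaks of replicate 1, 55 lay on III (22.0%), against 16.6% of that whole list. In replicate 2 there were 58 (23.2%), also against 16.6% of the whole list. The span of III is 13.7% of the nuclear span.

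The 15 highest-ranked peaks of III reached from rank 2 to rank 79 of the combined list. Each overlapped a peak of the highest score in both replicates, and 13 of the 15 were narrower than usual.

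The strongest lay at III 3867390 to 3867717 (WS220), a peak of 328 bp with rank 2. It stood at rank 10 in replicate 1 and at rank 14 in replicate 2. The runner-up on the chromosome was at 10758981 to 10759343, 363 bp wide, with rank 3. Both replicates placed it near the top, at ranks 15 and 13. A peak close to the right end, at 13643481 to 13643800, had rank 8 and stood at ranks 20 and 31 in the replicates. Its centre lay at 99.0% of the span, and its nearest neighbour was 43.6 kb away. The peak at 5678949 to 5679235 had rank 9, with ranks 29 and 37 in the replicates. That at 7854486 to 7854772 had rank 18, with ranks 31 and 34. These 5 peaks kept a rank of 37 or better in both replicates.

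The replicate lists differ in length, and all 15 tie at the highest score in both, so their order there follows peak number. Ranks in the replicates are set side by side as positions in each list, and a difference between them shows no change in binding. Some members of the 15 had the smaller rank number in replicate 2. The peak at 12612388 to 12612704 had rank 20, with rank 45 in replicate 1 and rank 23 in replicate 2. The peak at 12307425 to 12307727 had rank 24, with ranks 72 and 27. The peak at 1618996 to 1619272 had rank 51, with ranks 90 and 70. The reverse held at 12904971 to 12905219, with rank 45 in the combined list and ranks 46 and 134 in replicates 1 and 2. It also held at 2785901 to 2786169, with rank 52 in the combined list and ranks 44 and 179. The remaining named peaks lay at 8801809 to 8802300 (rank 56), 4475507 to 4475762 (rank 72), 13062428 to 13062937 (rank 74) and 9765377 to 9765687 (rank 79). In the replicates these 4 stood between ranks 66 and 170. By position, 4 of the 15 lay in the left 33.3% of the chromosome, 4 in the central 33.3% and 7 in the right 33.3%. Of the 15, 9 had no other combined peak within 10 kb, and 4 belonged to groups of 5 or more.

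The seventh of the 15 differed from all others in shape. At 7814228 to 7816969 the combined list gave an interval of 2742 bp, 5.38 times the usual width, and it was the only nuclear interval of that list wider than usual. It was listed 3 times with the same ends and the same score, at ranks 21, 88 and 1123. Replicate 1 listed 7814237 to 7816961 (2725 bp) 6 times, at ranks 16, 100, 2393, 8357, 22323 and 23091. Replicate 2 listed 7814253 to 7816946 (2694 bp) 3 times, at ranks 158, 316 and 698. All 3 lines of replicate 2 share its top score, 3.59, and are ordered by peak number alone. In replicate 1 the scores ran from the highest value, 3.29, down to 0.148. The centres of the 3 versions lay within 1 bp of each other. In all 3 lists this was the single nuclear interval wider than usual and the single nuclear interval listed more than 1 time. The nearest other combined peaks were 56.9 kb to the left (rank 1628) and 39.0 kb to the right, where the peak of rank 18 lies. The 460 lines therefore stand for 458 distinct intervals. Read depth in the input was not analysed here, so whether extra copies of this stretch or its repeat content go with the wide call was not tested.

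**Figure D2:**
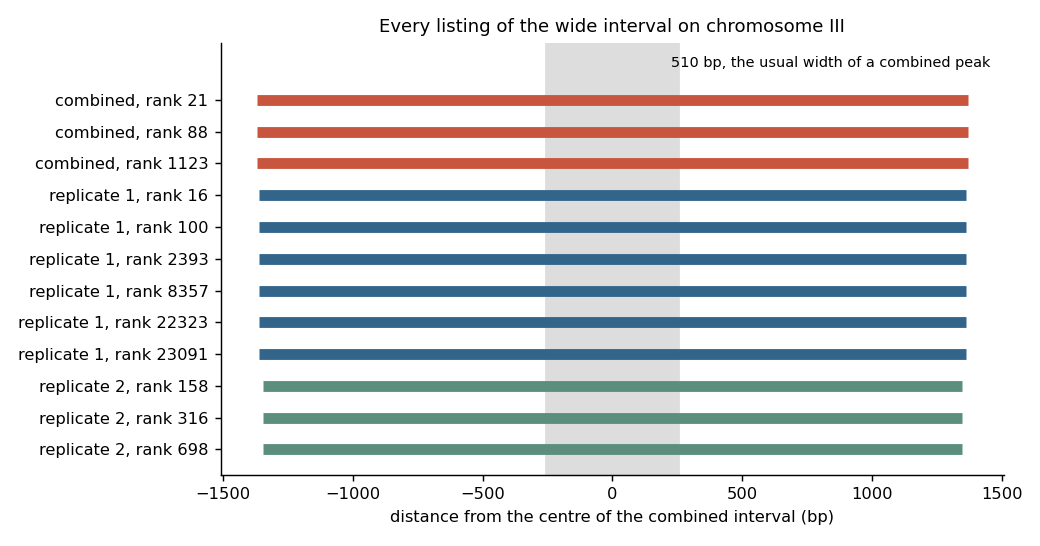
Each line that lists the wide interval of chromosome III, drawn as its extent in bp around the centre of the combined interval and labelled with its list and rank. The 3 combined lines (red), 6 lines of replicate 1 (blue) and 3 of replicate 2 (green) share their centre to within 1 bp, and all are far wider than the 510 bp (grey) that most combined peaks have.

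Neighbouring peaks on III stood close together. The median distance between neighbouring centres was 15.2 kb (quartiles 4.36 and 42.4 kb), where even spacing over the span would give 30.0 kb. On the other chromosomes the median ranged from 16.7 kb on II to 29.9 kb on IV, so II and III were nearly alike. The median was 50.8% of the even spacing on III, within the range of 40.0% on V to 66.0% on IV. By that measure III stood in place 4 of 6. Among the 457 distances between distinct intervals, 170 (37.2%) were 10 kb or less, 25 (5.47%) were 1 kb or less and 26 (5.69%) exceeded 100 kb. The widest stretch without a combined peak ran from 9191385 to 9443482, and the 252 kb between its flanking centres is the shortest such maximum of the 6 chromosomes. It was not empty in the replicates, which listed 43 and 49 peaks inside it, the best at ranks 2532 and 2002.

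Peaks were joined into groups where the gap to the next was 10 kb or less. This gave 281 separate units on III, namely 179 peaks alone, 62 pairs, 17 groups of 3, 15 of 4, 4 of 5, 2 of 6 and 2 of 7. The wide interval with its 3 listings accounts for 1 of the groups of 3. In all, 281 of the 460 peaks (61.1%, 95% interval 56.6 to 65.4) had company within 10 kb. The share on the other chromosomes ran from 48.4% on IV (43.5 to 53.4) to 58.1% on II (53.5 to 62.6). Only the interval of IV lies wholly below that of III. With the highest-ranked peaks of a single replicate in place of the combined list, the share on III was 60.7% (replicate 2) or 59.2% (replicate 1) and no longer the highest of the 6. Groups of 3 or more numbered 40, or 2.90 per Mb, against 1.14 on IV to 2.49 on II. As a share of peaks, groups of 3 or more held 34.1% on III, below V (36.6%) and II (35.9%), and groups of 5 or more held 10.0%, against 15.9% on V and 13.4% on II. No very large group was found: the largest held 7 peaks, whereas the largest on II held 11.

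The 8 groups of 5 or more lay in the central and right parts of the chromosome, between 52.0% and 94.8% of the span, and none lay in the left 50%. The group with the best-ranked member after those of rank 20 and 24 was that of 7 peaks at 8780258 to 8802300, in 22.0 kb. Its strongest member, of rank 56, is at its right edge, and peaks of rank 352 and 296 lie 1.89 and 6.17 kb to the left. The replicates listed 20 and 21 peaks over the group. The other group of 7, at 10621087 to 10652033 in 30.9 kb, had a different make-up. Its narrow peak of rank 229 had 3 peaks on each side, all at ranks from 1389 to 1734, and all 7 tied at the highest score.

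The densest of the 8 was the group of 6 at 13061122 to 13071923, in only 10.8 kb. It held 4 peaks of rank 366 or better, with ranks 198, 74, 366 and 343 from left to right. The group of 6 at 9807319 to 9830806 had the lowest-placed best member, at rank 1184, and every peak of the usual width. Yet 5 of its 6 peaks tie at the highest score, so that place rests on peak number. The 5 peaks at 12598295 to 12614758 were led by rank 20, with the next at rank 725, 3.86 kb to its left. The 5 peaks at 12307425 to 12327926 began with rank 24 at their left edge, followed by rank 340, 10.0 kb away. The remaining 2 groups of 5 are close neighbours, at 7153713 to 7167093 (best rank 334) and 7179740 to 7208161 (best rank 240). In the latter the best-ranked peaks, of ranks 298 and 240, lie at the ends, 28.2 kb apart, with lower-ranked peaks between them. All 46 peaks of the 8 groups were overlapped in both replicates.

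**Figure D3:**
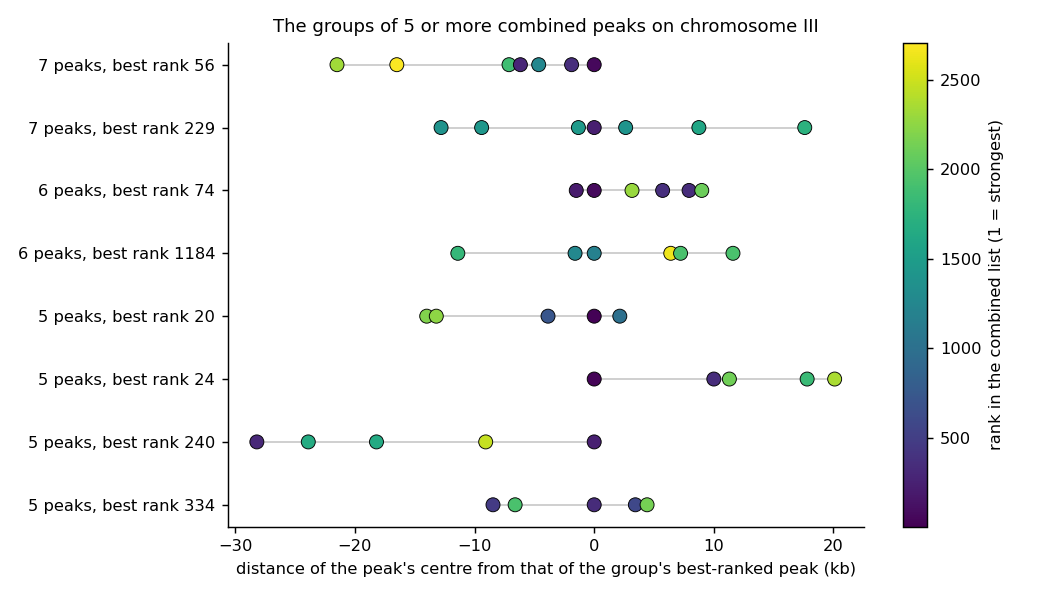
The 8 groups of 5 or more combined peaks on chromosome III, each a row, with peaks placed by the distance in kb of their centre from that of the group's best-ranked member and coloured by rank in the combined list. In 7 of the groups a peak of rank 334 or better lies at distance 0, while in the other group the best rank is 1184.

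Ranks of grouped and lone peaks were similar. The median rank in the combined list was 1256 for peaks alone, 1273 in pairs, 1220 in groups of 3 or 4 and 1418 in groups of 5 or more. The shares tied at the highest score were 72.1%, 79.0%, 72.1% and 76.1% in the same order. Grouped peaks were more often met by several replicate peaks: 45.7% of the peaks in groups of 5 or more overlapped at least 2 peaks of replicate 1, against 22.9% of lone peaks. For replicate 2 these shares were 34.8% and 14.0%.

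Along the chromosome, peaks were somewhat more frequent in the centre. The left, central and right 33.3% of the span held 142, 172 and 146 peaks, or 30.9, 37.4 and 31.8 per Mb. The central share was 37.4% (95% interval 33.1 to 41.9). Among the other chromosomes it ran from 31.4% on X (27.4 to 35.6) to 50.8% on V (46.4 to 55.3), and only X was below III. In the replicate lists the centre of III held 33.6% and 34.3% of peaks, close to even spread. Peaks in the left 33.3% of the span stood more apart, with 46.5% alone, against 31.4% in the centre and 40.4% on the right. The right 33.3% had the best median rank, 1108, against 1281 in the centre and 1380 on the left, and 8 of its peaks were among the 100 highest-ranked of the whole list, against 7 and 4. All these ranks lie within the tie at the highest score, so their order follows peak number. The share tied at that score was 78.8% on the right, 72.7% in the centre and 71.8% on the left.

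In 27 full bins of 500 kb, the count of combined peaks had a median of 17 and ranged from 6 to 27. The fullest bin, at 8 to 8.5 Mb, held 27 peaks, although its best rank was only 176. The bin at 9.5 to 10 Mb followed with 26, and those at 4 to 4.5 and 8.5 to 9 Mb had 25 each. The emptiest bin, with 6, lay between 2 of these at 9 to 9.5 Mb and contains the widest stretch without a combined peak. That bin was low in the replicates too, with 114 and 128 peaks, against medians of 158 and 175. The replicates had their own maximum elsewhere, at 5.5 to 6 Mb with 231 and 251 peaks, where the combined list held 21. Over the 27 bins, Spearman's rho between combined and replicate counts was 0.71 for replicate 1 and 0.77 for replicate 2, and between the replicates it was 0.87. Bins share their libraries and the combined list was made from the replicates, so these values describe the lists.

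**Figure D4:**
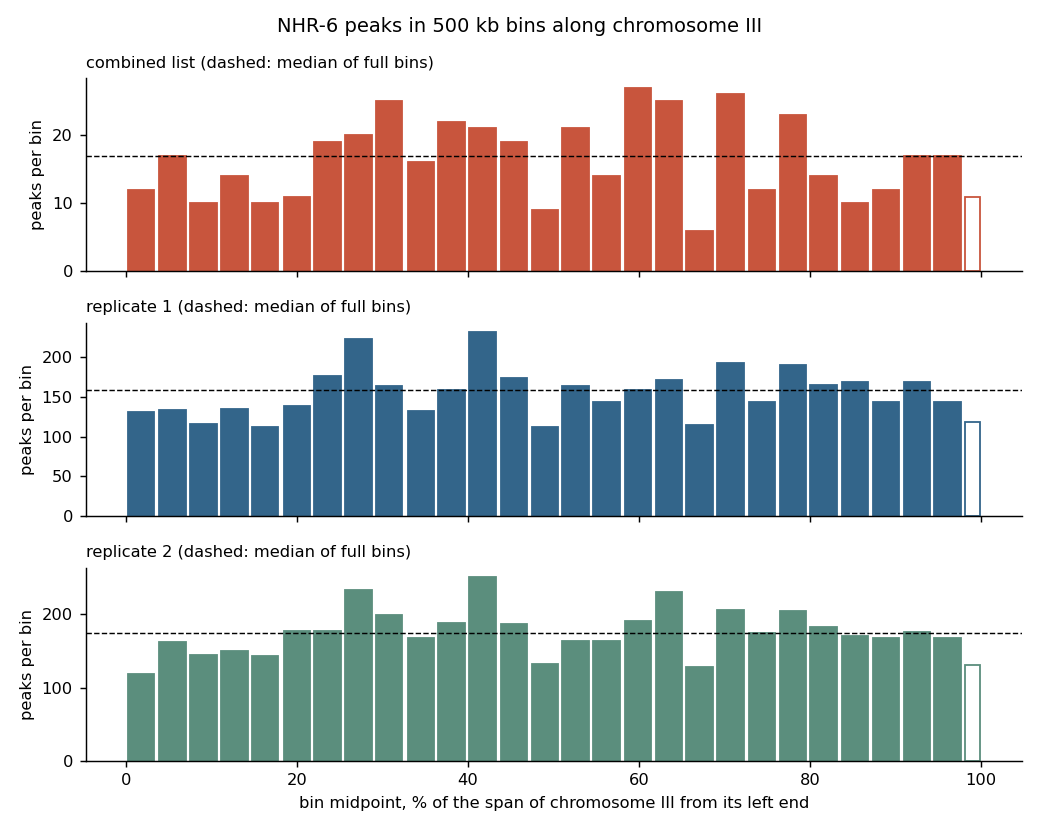
Peaks per 500 kb bin along chromosome III in the combined list and in each replicate, with bin position as a percentage of the span. Filled bars are full bins, the open bar is the shorter last bin and dashed lines are medians over full bins. The combined counts run from 6 to 27, and the emptiest bin is also low in replicates 1 and 2 (114 and 128 peaks).

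Nearly every combined peak of III was found in both replicates. Replicate 2 overlapped all 460 by at least 1 bp (95% interval 99.2 to 100), against 99.8% of all combined peaks. Replicate 1 overlapped 457 (99.3%, 98.1 to 99.8), against 99.0% of all combined peaks. The share on III is thus that of the whole list, and as the combined list was made from the replicates, the overlap describes how the list was built. Replicate 1 had 4317 peaks on III and replicate 2 had 4890, so 13.4% and 11.4% of them overlapped a combined peak. Where a peak was shared, its centre moved little. The median distance to the nearest overlapping replicate centre was 16 bp in replicate 1 and 15.2 bp in replicate 2.

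The 3 peaks without replicate 1 were of the usual width. Those of ranks 1809 and 1893 tie at the highest score of the combined list, so their place in it follows peak number, while the other scored 2.99. The peak at 7498225 to 7498734 (rank 1809) stood at rank 689 in replicate 2, and replicate 1 had a peak 212 bp away at rank 25310, close to the end of its list. The peak at 3571406 to 3571915 (rank 1893) stood at rank 457 in replicate 2. There the nearest peak of replicate 1 was 630 bp away, at rank 6114. The peak at 10807718 to 10808227 (rank 2545) stood at rank 987 in replicate 2, with the nearest peak of replicate 1 at 3240 bp. All 3 were therefore well placed in replicate 2 and carried into the combined list without an overlapping peak in replicate 1.

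The combined peaks of III were well ranked in both replicates, but the order differed between them. Their median best rank was 1513 in replicate 1 (quartiles 583 and 2567) and 1288 in replicate 2 (556 and 2515). On the other chromosomes the median ran from 1483 on V to 2080 on II in replicate 1, and from 1272 on IV to 1505 on I in replicate 2. A peak of the highest score in replicate 1 overlapped 191 of the 460 peaks (41.5%, 95% interval 37.1 to 46.1), against 28.7% on II to 39.3% on V. In replicate 2 such a peak overlapped 298 (64.8%, 60.3 to 69.0), within the range of 62.1% on II to 68.6% on X. Chromosome III was thus highest of the 6 on this measure in replicate 1 and in place 4 in replicate 2. Within the first 2707 ranks of both replicates stood 273 peaks (59.3%, 54.8 to 63.7), against 45.4% on II to 57.3% on V.

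Over the 457 peaks found in both, Spearman's rho between the best ranks was 0.37, against 0.18 on I to 0.33 on V. This is a correlation across peaks of the same 2 libraries, chosen by the authors for being reproducible, and carries no p. The ranks mix score order with peak number inside ties, so rho describes positions in the lists. The 2 ranks were within a factor of 2 for 209 peaks (45.7%), and more than 10 times apart for 25 (5.47%). The largest ratio between the ranks was at 7973855 to 7974364, with rank 286 in replicate 1 and 21658 in replicate 2. Next came 8658162 to 8658671, with ranks 442 and 19978. At 13268653 to 13269162 the order was turned, with rank 10347 in replicate 1 and 402 in replicate 2. These 3 were picked after their values were seen.

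**Figure D5:**
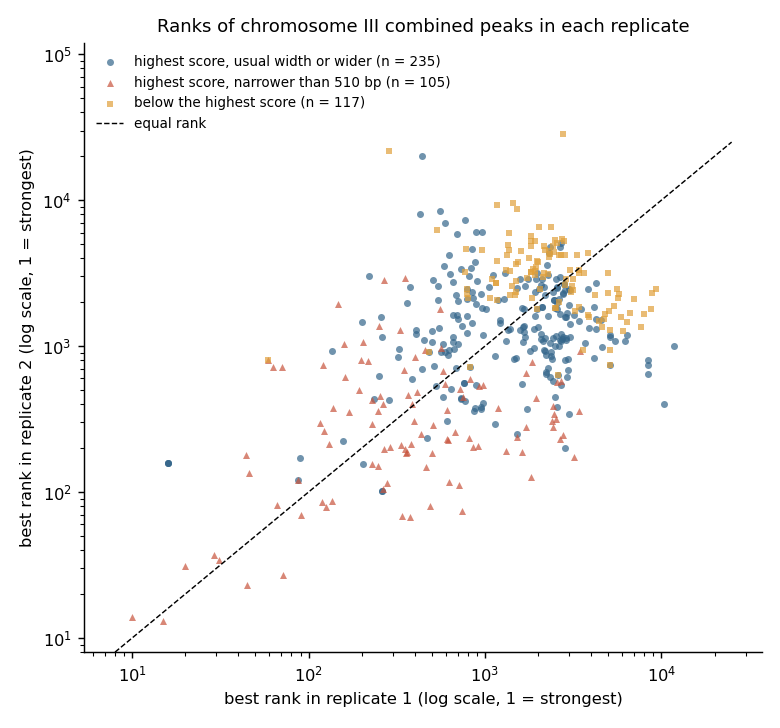
Best rank in replicate 1 against best rank in replicate 2 for the 457 combined peaks of chromosome III found in both, on log axes, with the dashed line at equal rank. Narrow peaks of the highest score (red triangles, n = 105) gather at small rank numbers, where the order within ties follows peak number. Peaks below the highest score (yellow squares, n = 117) lie mostly beyond rank 1000 in at least 1 replicate, and the spread around the line is wide (rho 0.37).

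The highest-ranked replicate peaks on III were kept in the combined list. Of the first 500 nuclear ranks, all 98 peaks of replicate 1 and all 105 of replicate 2 that lie on III overlapped a combined peak. On the other chromosomes 397 of 402 and 391 of 395 did. The best-ranked peak of III without a combined counterpart was at 9827090 to 9827619 in replicate 1 (rank 769), which no peak of replicate 2 overlapped. It lies inside the group of 6 at 9807319 to 9830806, 678 bp from the nearest member. In replicate 2 it was at 10461000 to 10461455 (rank 767), which overlapped 2 peaks of replicate 1, the better at rank 9501. Its left end lies 78 bp from a combined peak. A further site was listed at the highest score in both replicates. Replicate 1 listed 5024576 to 5025105 at rank 913 and replicate 2 listed 5024286 to 5024741 at rank 868, and the intervals overlap, yet no combined peak lies within 5 kb of either. These sites were singled out after their ranks were seen.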

How the data were processed

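The authors called peaks on build WS220, per the file headers, using SPP and then an irreproducible discovery rate (IDR) step, as each line names its source. For the aligner, settings, threshold and way of combining replicates, details are not given in the sources at hand. The deposited score of each peak has no stated scale and only ranked peaks within a list. Positions count from 1. The 3 peak lists (combined, replicate 1, replicate 2) hold no read counts, so depth is unknown and intervals cover the counting of peaks only.

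Overlap meant at least 1 bp, and a peak's best rank in a replicate is the best among the peaks overlapping it. Groups join peaks with gaps of at most 10 kb. Named regions are the 15 highest-ranked peaks, groups of 5 or more, the repeated interval, peaks missing from a replicate, and the extremes of width, bins and gaps. Others are marked as chosen after their values were seen. The chromosome and these lists were chosen with earlier results of these data known. No test was run. The alternatives were the first 50% of the ranking, each replicate alone, distinct intervals, other gaps, overlap rules and boundaries. The functions were tested on simulated data. Values were computed in Python 3.11.15 with pandas 2.3.3, numpy 2.4.6 and scipy 1.17.1, and plotted with matplotlib 3.10.9.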

Additional observations from a re-analysis of the deposited data

How the results depend on the processing

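Of 38 values under another setting, 22 stayed within the interval of the value reported (for counts, within 1.5 times it) and 16 moved. The density of III was the highest of the 6 chromosomes under each of the 5 alternatives run, with 16.1% (peaks within 10 kb counted once) to 18.4% (without replicate 2) of nuclear peaks on III, and 16.3% without replicate 1. The median spacing was the shortest of the 6 for all peaks and for distinct intervals, but second shortest in the other settings run: it was 35.0 kb in the first 50% of the ranking, which holds fewer peaks by construction, and 16.0 kb without replicate 1 or 2. Peaks with company within 10 kb fell to 41.7% in that first 50%, and were 47.4% with a gap of 5 kb and 81.5% with 20 kb. Their share on III ranged from 59.2% to 60.7% without a replicate. In that first 50% and without either replicate, III was no longer the highest of the 6. Groups of 3 or more numbered 12, 23 and 62 in those 3 settings and 46 without either replicate. The central 33.3% held 34.9% with peaks within 10 kb counted once, and the central 50% held 57.0% of all peaks. Support by replicates 1 and 2 was 81.7% and 86.7% with overlap of 50% of both peaks, the lowest of the 6 chromosomes in each. A combined peak narrower than 50% of a replicate peak cannot meet that rule, however close their centres. Usual widths in the replicates were 530 and 456 bp, and narrow combined peaks were most frequent on III. Whether width or poorer replication goes with that place was not tested. With centres within 100 bp, support was 93.9% and 95.7%, in places 2 and 4 of 6. Support was 78.3% in both when as many replicate peaks were used as the combined list holds. Replicate 1 supported 100% of the first 50% of the ranking. The usual width was held by 55.8% of those peaks. For the moved values whose cause is not given by fewer peaks or by another boundary, the cause was not tested. No paired analysis was possible because the 2 ChIP replicates form a single group and no comparison with input was made. Depth is unknown, so its part in the differences between replicates was not tested.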

Other observations

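Some combined peaks of III overlapped each other. Among distinct intervals, 13 pairs of neighbours did (2.84% of neighbours), against 1.56% on IV to 3.14% on V. In 11 of the 13 pairs both peaks had the usual width, and their centres lay 200 to 373 bp apart. At 1925100 to 1925480 and 1925107 to 1925480 the centres were only 3.50 bp apart, with ranks 217 and 2551. Counts of peaks on III are therefore slightly above counts of separate sites.

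The narrowest peaks of III were 128 bp wide, and 7 peaks had this width. They ranked from 175 to 724 in the combined list, from 137 to 1528 in replicate 1 and from 187 to 1942 in replicate 2. The narrow peak at 3863001 to 3863128 (rank 175) is the neighbour of the strongest peak of the chromosome, with which it forms a pair. Peaks reached close to both ends: the leftmost lay at 65349 to 65858 (rank 1924) and the rightmost at 13771048 to 13771557 (rank 1407). The peak at 8124272 to 8124781 took the last place of the whole combined list, rank 2707, and stood at ranks 1501 and 3633 in the replicates.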
